A study of Oryza sativa with 6 samples.

Results

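The genes compared here encode enzymes of jasmonate synthesis in rice roots. They were chosen by name, as every rice gene whose symbol or synonym is AOS, AOS1, AOS2, AOC, OPR1, OPR7 or JAR1. The search found 9 genes, of which 8 had a probe set on the array, with 9 probe sets among the 57194 that were not controls. All 9 probe sets were in the brighter 50% that was tested, 28597 probe sets in all, so no member was lost to the filter on dim signals.

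Roots of 30-day plants were taken from Huahui 1 (HH1), a transgenic rice line, and from its background cultivar Minghui 63 (MH63), the non-transgenic control. HH1 is known as an insect-resistant line with a bacterial insecticidal protein gene, and it is a single transgenic line. Both genotypes grew in nutrient solution with 16 h of light at 30°C and darkness at 26°C, and each gave 3 biological replicates with 1 Affymetrix array each. The series looked for genes and pathways that differ between these roots, to trace changes that the transformation was not meant to cause.

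Jasmonates are plant hormones made from linolenic acid of plastid membranes, and they rise after wounding and attack by chewing insects or necrotrophic fungi. Lipoxygenases oxygenate the fatty acid, allene oxide synthase (AOS) turns the product into an unstable epoxide, and allene oxide cyclase (AOC) closes its ring to give 12-oxophytodienoic acid (OPDA). A peroxisomal OPDA reductase (OPR) and rounds of beta-oxidation then yield jasmonic acid, which JAR1 joins to isoleucine to make the form that the COI1 receptor binds. The bound receptor marks JAZ repressors for destruction, and in Arabidopsis and rice several genes of synthesis and the JAZ genes themselves are induced by the hormone, so that synthesis and repression can rise together.

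Median signals of the 6 arrays lay between 33.1 and 33.8, on the linear scale of the deposited intensities, and having only 3 arrays a group limits how precise each value is. Of 22 root markers with a probe set, 19 or 20 exceeded the reporter-probe level on each array, and the silicon transporter Lsi1 read between 4801 and 8585. That level, the 95th percentile of the array's 64 probe sets for foreign marker genes, ran from 37.1 to 42.3. Seed and shoot markers were not evenly spread. The summed signal of 11 seed markers was 11380 on HH1 replicate 1 and 1246 to 1390 on the other HH1 arrays, beside 1307 to 1950 in MH63. The summed signal of 14 green tissue markers was 744 to 2091 in HH1 and 748 to 2649 in MH63. No marker was at 0. Of the 14 green tissue markers, 5 to 12 exceeded the reporter-probe level on each array. Among 2 subunit genes of the carbon-fixing enzyme of leaves, OsrbcS exceeded it on all 6 arrays, at 135 to 205, and RBCS1 on none, while CAB2R, a light-harvesting protein gene, read from 30.2 to 1373. Of the 11 seed markers, 10 exceeded it on HH1 replicate 1, 6 on HH1 replicate 2 and 3 to 5 on the other arrays. RNA from a root mixes cell types, so fewer cells of a type and less RNA per cell cannot be told apart.

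The transcripts of the AOS step varied most among the members, and they did so within HH1. AOS1 (LOC4334233) read 570, 484 and 196 in HH1 replicates 1, 2 and 3, and 185, 186 and 184 in the same order in MH63. The MH63 arrays were almost equal, HH1 replicate 3 lay just above them, and HH1 replicates 1 and 2 stood 3.08-fold and 2.61-fold above the MH63 mean. The groups did not overlap. The mean of AOS1 was 417 ± 196 (SD, n = 3) for HH1 against 185 ± 0.78 (SD, n = 3) for MH63. This is a log2 difference of 1.03 (standard error 0.38), and it did not pass the test over all probe sets, with an unadjusted p of 0.030 and an adjusted p of 1.00 (limma, Benjamini-Hochberg).

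AOS2 (LOC4332121), the second allene oxide synthase gene, read 570, 574 and 63.2 in HH1 replicates 1, 2 and 3. MH63 replicates 1, 2 and 3 read 50.4, 156 and 104. Here HH1 replicate 3 fell inside the MH63 range, so the groups overlapped, and MH63 itself spread 3.09-fold from its lowest to its highest array where AOS1 spread 1.01-fold. HH1 replicates 1 and 2 were 9.02-fold and 9.08-fold above HH1 replicate 3, and for AOS1 those ratios were 2.90 and 2.46. The mean was 403 ± 294 (SD, n = 3) for HH1 against 103 ± 52.7 (SD, n = 3) for MH63. The log2 difference of 1.56 had a 95% interval of -0.57 to 3.68 and an unadjusted p of 0.13 (limma), so that neither a large rise nor a small fall lies outside the error.

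**Figure D1:**
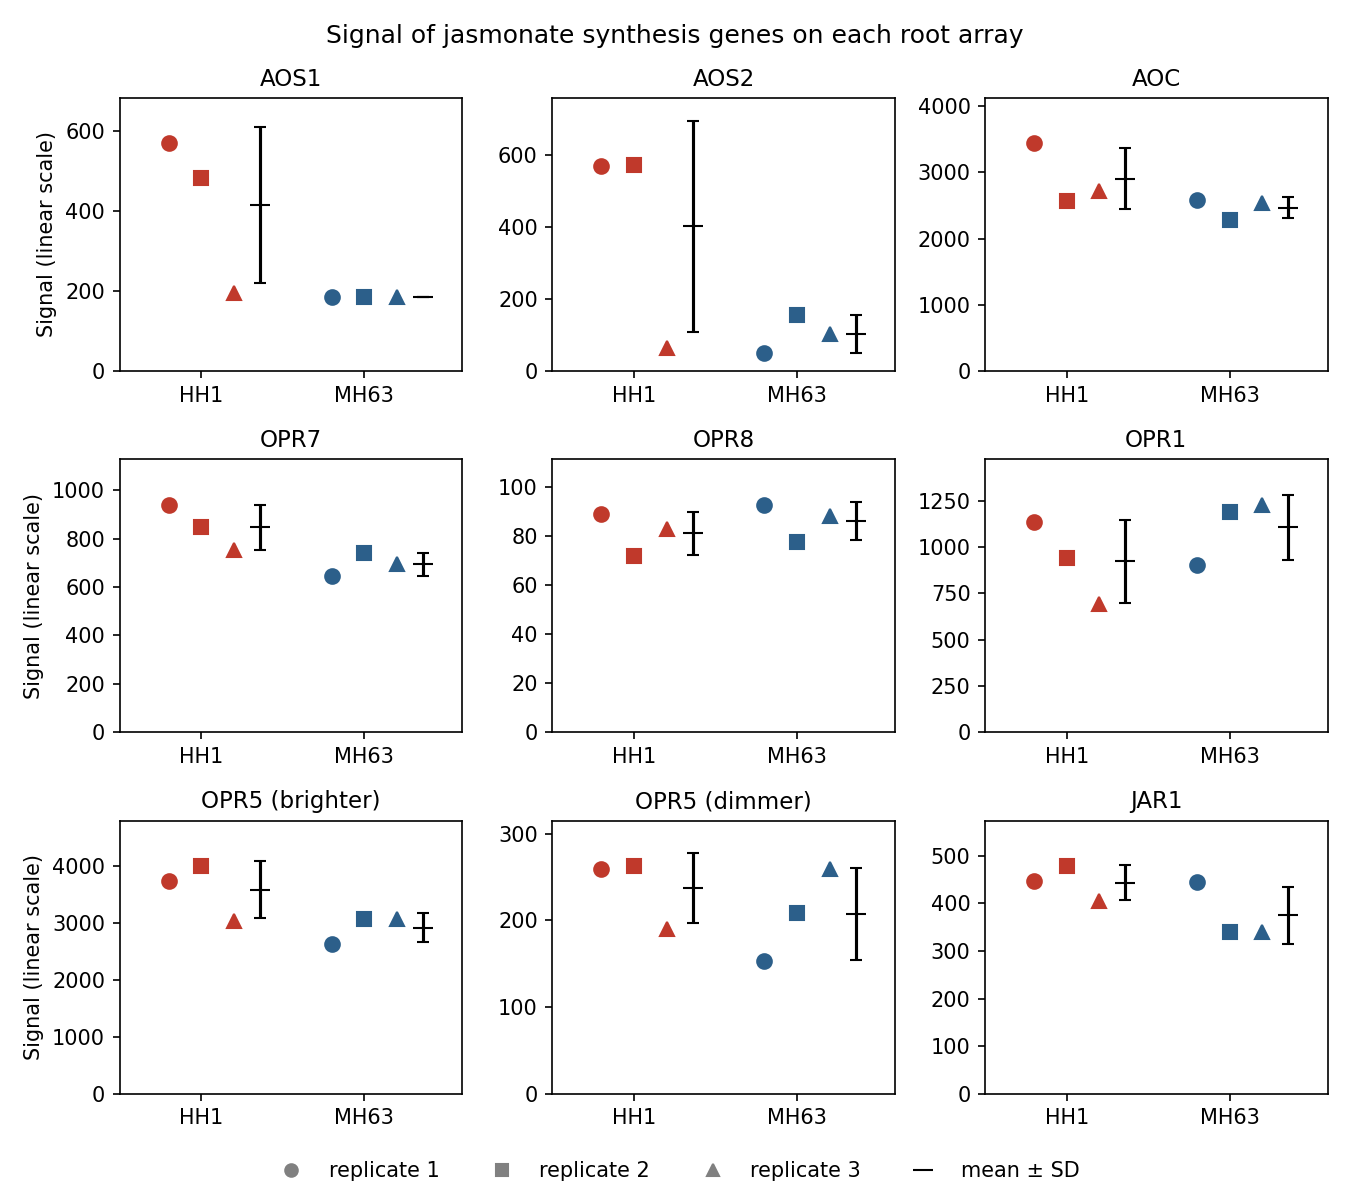
Signal on a linear scale (y axis, from 0) of each of the 9 probe sets in HH1 (red) and MH63 (blue), with replicates 1, 2 and 3 as circle, square and triangle and the mean ± SD in black (n = 3). AOS1 and AOS2 were high on HH1 replicates 1 and 2 only, at 484 to 574, while the other panels show arrays of both genotypes at similar levels.

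The cyclase step showed no such split. AOC (LOC4333201), whose rice mutants cpm2 and hebiba lack jasmonate, had a signal of 3438, 2569 and 2716 in HH1 replicates 1, 2 and 3 and of 2578, 2282 and 2540 in MH63 replicates 1, 2 and 3. HH1 replicate 1 was highest, and HH1 replicate 2, where AOS2 was at its highest, lay inside the MH63 range. The means were 2908 ± 465 and 2467 ± 161 (SD, n = 3 each), a log2 difference of 0.23 with a 95% interval of -0.10 to 0.56 that leaves room for AOC to be up to 1.47-fold higher in HH1 (unadjusted p 0.14, limma). Leaving out single arrays moved it between 0.10, without HH1 replicate 1, and 0.31, without HH1 replicate 2.

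OPR7 (LOC4345762), known in rice as the reductase of jasmonate synthesis and from the open glume mutant og1, read 939, 848 and 754 in HH1 replicates 1, 2 and 3 and 644, 741 and 696 in MH63. All HH1 arrays were above all MH63 arrays, but HH1 replicate 3 and MH63 replicate 2 differed by less than the SD of either group (92.1 in HH1 and 48.5 in MH63). The log2 difference was 0.28 (95% interval -0.02 to 0.59) with an unadjusted p of 0.061 and an adjusted p of 1.00 (limma). A second gene with the synonym OPR7, listed also as OPR8 (LOC4329684), was dimmer and showed no order by genotype, at 89.1, 71.8 and 82.8 in HH1 and 92.8, 77.8 and 88.1 in MH63, a log2 difference of -0.09 (95% interval -0.42 to 0.25) that ran from -0.16 to -0.0013 as single arrays were left out.

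The genes named OPR1 belong to a run of neighbouring reductase genes, which are related in sequence, so that a probe set may also bind a neighbour's transcript. In Arabidopsis the reductases of this first class act poorly on the natural isomer of OPDA. OPR1 (LOC4340490) read 1133, 943 and 691 in HH1 replicates 1, 2 and 3 and 903, 1189 and 1227 in MH63, with overlapping groups and a log2 difference of -0.28 (95% interval -0.79 to 0.23), which was -0.44 without HH1 replicate 1. HH1 replicate 3 was the lowest of the 6 arrays. The adjacent locus that carries the same names (LOC112936094) had no probe set listed, and its signal may be part of that of LOC4340490.

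OPR5 (LOC4340485), which entered through its synonym OPR-1, had 2 probe sets that gave the same direction. The brighter read 3732, 3984 and 3021 in HH1 replicates 1, 2 and 3 and 2620, 3059 and 3064 in MH63, with a log2 difference of 0.29 (95% interval -0.04 to 0.62). The dimmer read 259, 262 and 191 in HH1 and 153, 209 and 260 in MH63, with a log2 difference of 0.21 (95% interval -0.33 to 0.76). The value of the dimmer turned on the MH63 arrays, at 0.013 without MH63 replicate 1 and 0.39 without MH63 replicate 3. On both, HH1 replicates 1 and 2 were above HH1 replicate 3 by 1.24-fold to 1.38-fold, and the groups overlapped.

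JAR1 (LOC4339756), listed also as GH3.5, is the amidosynthetase that makes the active isoleucine conjugate. It read 447, 478 and 405 in HH1 replicates 1, 2 and 3 and 444, 340 and 340 in MH63. MH63 replicate 1 lay among the HH1 arrays, and the log2 difference was 0.25 (95% interval -0.11 to 0.61) with an unadjusted p of 0.14 (limma). Without MH63 replicate 1 it was 0.38.

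Counted over all 9 probe sets, none passed the test at an adjusted p under 0.05, where 0.112% of all tested probe sets did, and each had an adjusted p of 1.00, and 1, AOS1, had an unadjusted p under 0.05 (limma), as did 4.01% of all tested ones. The log2 difference was above 0 in 7 and below 0 in 2, with a median of 0.25, beside 46.4% above 0 and a median of -0.01 over all tested probe sets. The groups did not overlap in 2 of the 9, AOS1 and OPR7, both higher in HH1, where this held for 3.51% of all tested probe sets. Between the lowest and the highest of the 6 arrays, AOS2 spanned 11.4-fold, AOS1 3.09-fold and the other 7 probe sets 1.29-fold to 1.78-fold. Whether the AOS difference exceeded that of the later enzymes was not tested, and the interval of AOS1 (0.13 to 1.93) overlaps that of AOC.

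The array on which a value turned was not the same for all members. AOC moved most without HH1 replicate 1, and JAR1 without MH63 replicate 1. The values of AOS1 and AOS2 turned most on HH1 replicate 3. That array was the lowest of HH1 in 7 of the 9 probe sets and in 26.6% of all tested ones. Without it, AOS1 had a log2 difference of 1.51 (standard error 0.14, adjusted p 0.012 in limma), and AOS2 had 2.61 (standard error 0.45, adjusted p 0.074). AOS1 was then the only member past the threshold, where 1.01% of all tested probe sets passed as higher in HH1. In the same fit 4 of the 9, AOS1, AOS2, OPR7 and the brighter OPR5 probe set, had an unadjusted p under 0.05 (limma). So did 2054 of all 28597 tested probe sets. Without HH1 replicate 1 the log2 difference was 0.74 for AOS1 and 1.03 for AOS2, and without HH1 replicate 2 it was 0.86 and 1.02, with adjusted p of at least 0.61 (limma). Without MH63 replicate 1 or 2 that of AOS2 was 1.11 or 1.92. When HH1 replicate 3 was left out, the log2 difference was 0.27 for AOC, 0.37 for OPR7 and 0.31 for JAR1. Other reductase members moved more, OPR1 from -0.28 to -0.085, the brighter OPR5 probe set from 0.29 to 0.41 and the dimmer from 0.21 to 0.36, and none of these passed (adjusted p of at least 0.46, limma).

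**Figure D2:**
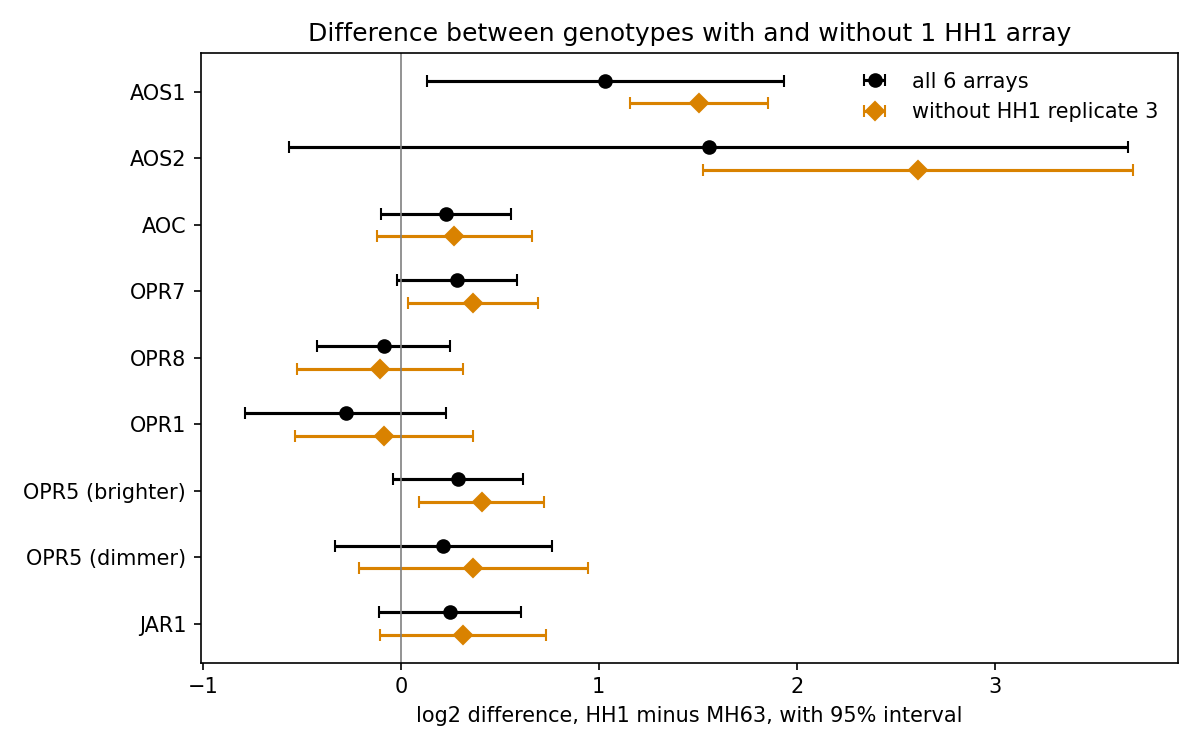
Log2 difference of HH1 minus MH63 (x axis) with its 95% interval for each probe set (y axis), from all 6 arrays (black circles) and without HH1 replicate 3 (orange diamonds). The interval of AOS1 narrowed from 0.13 to 1.93 to 1.16 to 1.85, and those of AOC, OPR7 and JAR1 without that array lay between -0.12 and 0.73. Without that array the intervals of AOS2, OPR7 (0.037 to 0.69) and the brighter OPR5 probe set (0.093 to 0.72) also lay above 0.

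A fold limit chosen after the values were seen describes the split. HH1 replicates 1 and 2 were each at least 2-fold above the highest of the other 4 arrays in 228 tested probe sets, 0.797%, and AOS1 and AOS2 were the members among them. The summed seed signal was high on HH1 replicate 1, mostly through prolamin (4386) and RAG2 (3889), and was 1390 on replicate 2, where AOS1 was 484 and AOS2 574. Single seed markers differed from this sum, and GLUA-3, a glutelin gene, read 110, 157 and 51.6 in HH1 replicates 1, 2 and 3 against 6.86 to 11.1 in MH63. Its probe set was outside the test, and its MH63 values lay below the reporter-probe level. GLUA-2, another glutelin gene, overlapped between the groups, at 240 to 327 in HH1 and 257 to 324 in MH63. The summed green tissue signal was high on HH1 replicate 2 and on MH63 replicates 1 and 2, mostly through CAB2R (1109, 1368 and 1373). On those MH63 arrays AOS1 was 185 and 186, and AOS2 was 50.4 and 156. Single green tissue markers differed from this sum too, and PSB28 (50.5) and CHL1 (58.9) were at their lowest on HH1 replicate 2. Any part of either tissue in the AOS values was not tested beyond these levels.

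The rest of the pathway was read from 41 further genes in 6 lists, of which 34 were tested. None passed in either direction, and 2 had an unadjusted p under 0.05 (limma), where 593 of all 14815 genes tested did. Of the 34 genes, 21 had a log2 difference above 0 and 13 below it, with a median of 0.09, beside 41.6% above 0 and a median of -0.03 over all genes tested.

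The split of the AOS genes was also seen upstream, in 2 lipoxygenases. They were 2 of the 7 tested genes of their list to meet the 2-fold rule on HH1 replicates 1 and 2, as did 0.803% of all genes tested. CM-LOX1 (LOC4345993, also LOX8) read 1048, 1093 and 22.4 in HH1 replicates 1, 2 and 3 and 64.7, 256 and 88.4 in MH63. CM-LOX2 (LOC4345994, also LOX9) read 1010, 1569 and 54.1 in HH1 and 74.9, 282 and 161 in MH63. As for AOS2, HH1 replicates 1 and 2 were high, MH63 replicate 2 was the highest parent array, and HH1 replicate 3 was low, for CM-LOX1 below the reporter-probe level. The 2 other probe sets of CM-LOX2 were dimmer and outside the test, and on both HH1 replicates 1 and 2 were again the highest, at 61.1 and 51.5 on the first and, below the reporter-probe level, at 26.9 and 27.5 on the second. Log2 differences were 1.38 with a standard error of 1.50 for CM-LOX1 and 1.55 with a standard error of 1.24 for CM-LOX2. Other lipoxygenases had smaller log2 differences, of 0.43 for LOX5, 0.40 for LOX2, and 0.09 and -0.02 for those not named here. The gene at -0.02 went against the split, lowest on HH1 replicate 2 (901) and highest on HH1 replicate 3 (1643). Without HH1 replicate 3 those of CM-LOX1 and CM-LOX2 were 3.24 and 3.06, with adjusted p of 0.074 and 0.082, while leaving out HH1 replicate 2 lowered them to 0.43 and 0.64 (adjusted p 0.96 and 0.92, limma). Of the 7 genes tested in this list, 5 were above 0, with a median of 0.40. One of the 7, OSL2 (LOC4336983, -0.12), matched through the name L2 and is not named as a lipoxygenase.

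None of the 4 other reductase and AOS-named genes tested met the 2-fold rule on HH1 replicates 1 and 2. AOS3 (LOC4328742) was high on a single array, at 920 in HH1 replicate 2 against 319 and 204 in HH1 replicates 1 and 3 and 288, 340 and 338 in MH63. AOS4 (LOC4328743), its neighbour in the gene order, read 960, 726 and 1240 in HH1 and 937, 1043 and 1186 in MH63, with HH1 replicate 2 the lowest. OPR10 had a log2 difference of 0.16 and OPR4 of -0.02, and of the 4 tested genes in this list 2 were above 0. For OPR10 and OPR4, HH1 replicates 1 and 2 were above all other arrays and HH1 replicate 3 was the lowest. OPR10 read 422, 558 and 327 in HH1 and 389, 362 and 390 in MH63. OPR4 read 142, 170 and 70.5 in HH1 and 107, 139 and 119 in MH63. Without HH1 replicate 3 their log2 differences were 0.35 and 0.36, and neither passed (adjusted p 0.80 and 0.86, limma). MFP, a multifunctional enzyme of fatty acid beta-oxidation and the only gene of that list with a probe set, had -0.05. Among genes of conjugation and turnover, ILL6 had 0.03 and GH3.6 had -0.02.

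Receptor genes of the hormone had small log2 differences, below 0. COI1B had a log2 difference of -0.21 with a standard error of 0.18, COI2 of -0.11 and the corepressor TPR3 of -0.14. For COI2 the groups did not overlap, at 556 to 617 in HH1 and 619 to 645 in MH63. BHLH148, a transcription factor known in rice to interact with JAZ proteins, split like AOS1, at 737, 620 and 213 in HH1 replicates 1, 2 and 3 and 229, 289 and 253 in MH63. Of the 8 tested genes of perception and signalling, 3 were above 0, with a median of -0.07.

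JAZ repressors were higher on HH1 replicates 1 and 2 in part of the family. Of 12 tested, 10 were above 0 with a median of 0.55, and 4 met the 2-fold rule on HH1 replicates 1 and 2, as did 0.803% of all genes tested. JAZ9 (LOC4331832) had a log2 difference of 1.83, JAZ11 (LOC4331833) of 1.23 and JAZ13 (LOC4348531) of 1.19, with standard errors of 0.76, 0.52 and 0.50. JAZ5 (LOC4335698) met the 2-fold rule as well. It read 815, 727 and 162 in HH1 replicates 1, 2 and 3 and 223, 268 and 207 in MH63. Its log2 difference was 0.99 with a standard error of 0.59. JAZ6 (LOC4333065) had 0.43 and did not meet the rule. Without HH1 replicate 3, JAZ9, JAZ11 and JAZ13 passed, with adjusted p of 0.0042, 0.011 and 0.0050, as did BHLH148 with 0.021 (limma). In that fit 1.01% of all tested probe sets passed as higher in HH1. Without HH1 replicate 1 the log2 differences of JAZ9, JAZ11, JAZ13 and BHLH148 were 1.30, 0.88, 0.85 and 0.50. Without HH1 replicate 2 they were 1.39, 0.94, 0.89 and 0.63. None of these genes passed in either fit (adjusted p of at least 0.65, limma). On HH1 replicate 3, these genes lay within or below the MH63 range.

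**Figure D3:**
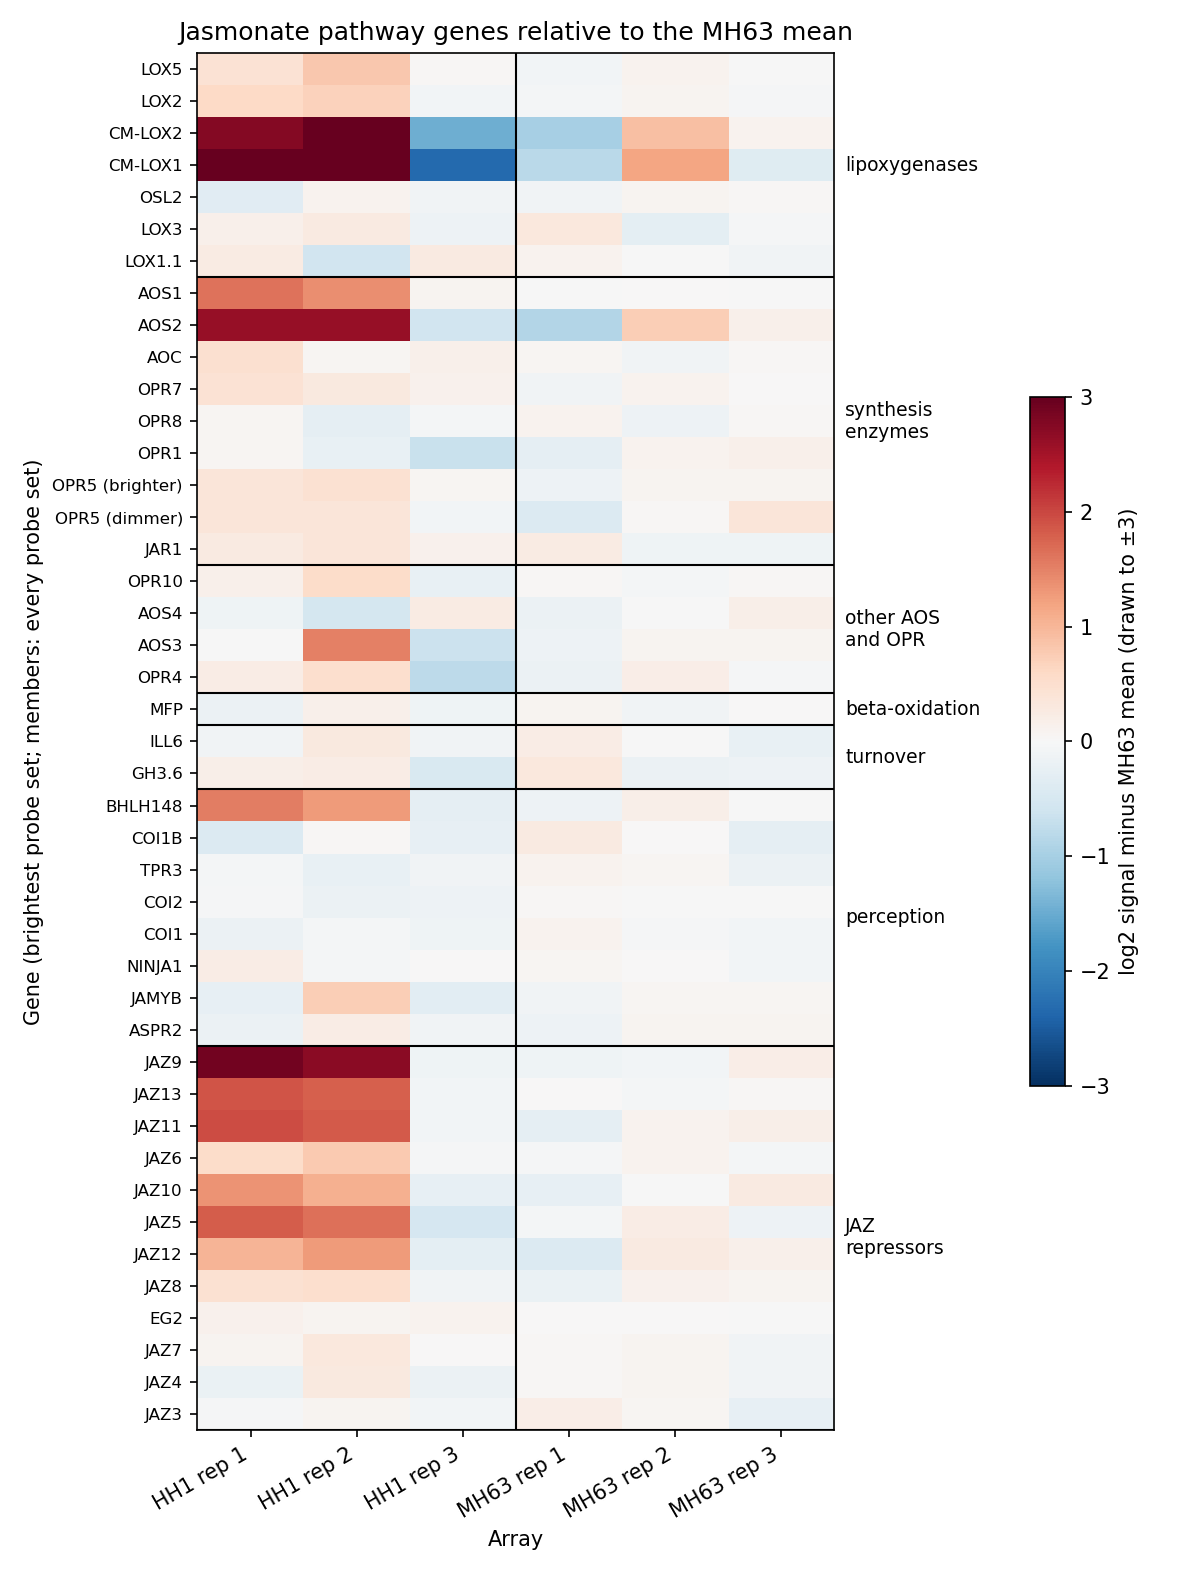
Log2 signal minus the MH63 mean of each gene (colour, drawn to ±3, red above and blue below) for the 9 member probe sets and 34 tested pathway genes (y axis) on the 6 arrays (x axis). Red on HH1 replicates 1 and 2 marks AOS1, AOS2, CM-LOX1, CM-LOX2, BHLH148 and part of the JAZ family, while AOC, OPR7, JAR1 and the COI genes stay pale.

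Genes with the most similar pattern were sought among 2169 other named genes, by the root mean square difference of log2 signals centred on each gene's mean over the 6 arrays. Only AOS1 and AOS2 varied enough for this, with an SD of log2 signal of at least 0.5. Nearest to AOS1 were 4CL5 (0.15), a 4-coumarate-CoA ligase of phenylpropanoid synthesis, BHLH148 (0.16) and OsSK2 (0.17), a shikimate kinase. 4CL5 read 3251, 2579 and 956 in HH1 replicates 1, 2 and 3 and 1107, 1088 and 1255 in MH63. Nearest to AOS2 were OsMAS (0.19), of momilactone phytoalexin synthesis, the transporter ABCG36 (0.27) and CYP76M5 (0.32), a cytochrome P450. CYP76M5 was above the reporter-probe level on HH1 replicates 1 and 2 alone, at 93.9 and 136, and its 15.7 to 28.2 on the other 4 arrays lay below that level, so that its place here rests in part on background values. OsMAS read 526, 471 and 60.5 in HH1 and 51.4, 107 and 99.0 in MH63, so that it shared the low level of AOS2 on MH63 replicate 1. Between AOS1 and AOS2 the measure was 0.80, larger than each of these 6 values, which were picked as the smallest. The measure also counts the size of the changes, and the SD of log2 signal was 0.77 for AOS1 and 1.53 for AOS2. The ranking is a description of 6 arrays, and without HH1 replicate 1 none of the 3 genes nearest to AOS1 remained among its nearest 3.

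**Figure D4:**
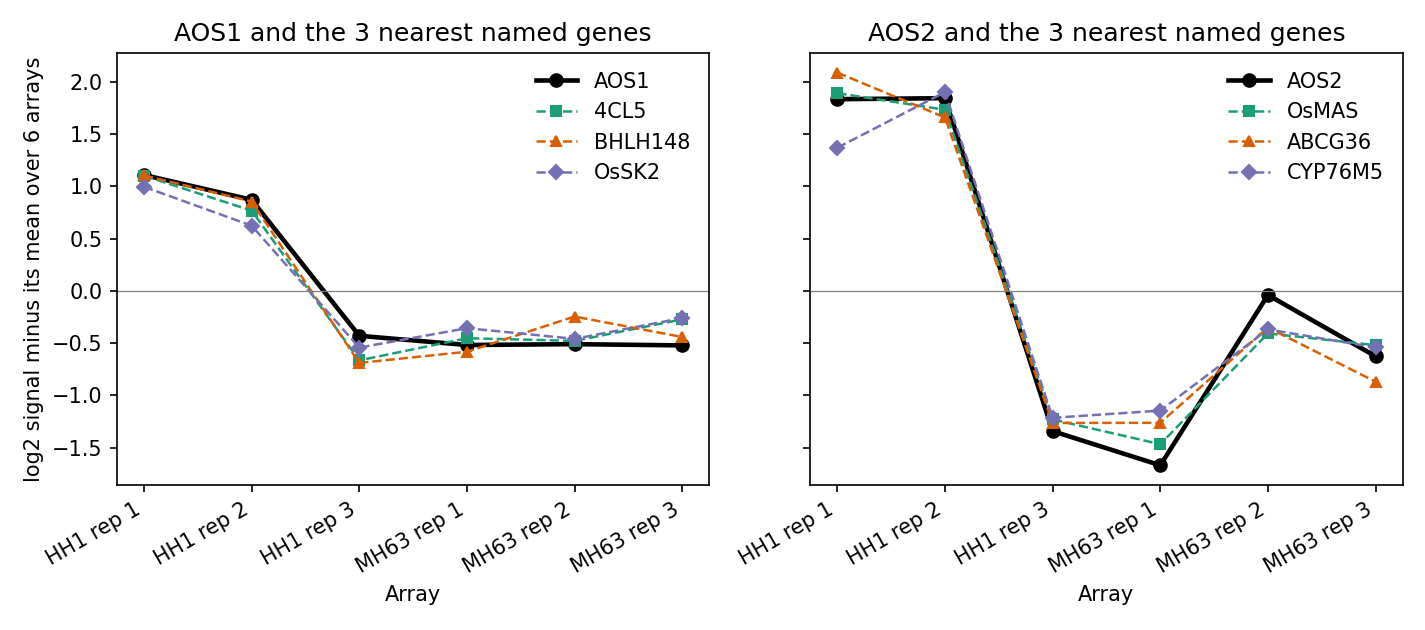
Log2 signal minus its mean over the 6 arrays (y axis) on each array (x axis) for AOS1 (left, black) and AOS2 (right, black) with the 3 named genes nearest to each (dashed). Genes near AOS1 were level across MH63, and those near AOS2 were lowest on HH1 replicate 3 and MH63 replicate 1.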

How the data were processed

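Total RNA of 6 root samples (6 ug each) was labelled and hybridised to 1 array per sample, and groups were taken from the sample titles. Each value is a deposited signal intensity of a probe set, on a linear scale. MAS5 is named without a version, per the submitters' processing notes. The scaling of the arrays is not stated in the labels, and no detection calls come with the table. The log2 of each signal was used with no offset. After 187 control probe sets were set aside, the brighter 50% by mean log2 signal were compared with limma 3.58.1 (R 4.3.3; lmFit, eBayes with a trend, two-sided, Benjamini-Hochberg adjustment over all 28597), which was tested on simulated data. P-values measure the spread between 3 arrays a group, as 1 variance for both groups that is drawn toward a trend over all tested probe sets. For AOS1 the SDs of the signal were unlike, at 196 in HH1 and 0.78 in MH63.

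Names of probe sets came from the platform annotation (22436 with 1 gene, 95 with several, 34663 not listed) and gene numbers, with symbols, synonyms and gene order from RefSeq assembly ASM3414082v1. All 17905 genes matched. Names are shared between some loci, and marker lists matched by name can hold other genes. The members and lists were chosen with earlier results of these data known. All members are named, with up to 4 genes of each list by smallest p and 3 nearest patterns. JAZ5 is named as well because it met the 2-fold rule. Promoter motifs and sequences were not analysed here. Alternatives were quantile normalization, no filter or the brightest 25%, an offset of 13.2 (25th percentile), no trend, a replicate block and leaving out each array. Figures were drawn with matplotlib 3.10.9.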

Additional observations from a re-analysis of the deposited data

How the results depend on the processing

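All 9 member probe sets kept the sign of their difference in every alternative that tested them (the brightest 25% did not include OPR8). With no filter, the brightest 25%, no trend or a replicate block the difference itself could not change. Those settings bear only on the p-values, and the kept sign says nothing there. Of all 107 comparisons, 106 were on the same side of the threshold. The exception was AOS1 without HH1 replicate 3, so that the count of members past the test ran from 0 to 1 when single arrays were left out. The 32 probe sets called over the whole array became 54 with no brightness filter and 8 in the brightest 25%, which test more and fewer probe sets, and 0 (843 at an unadjusted p under 0.05 in limma, without HH1 replicate 1) to 306 (without HH1 replicate 3) when 1 array was left out, where the cause was not tested. With a replicate block 17 were called and no member. Deviations of same-numbered arrays correlated at -0.12, 0.45 and 0.31. HH1 replicates 2 and 3 correlated best with the MH63 array of the same number, and HH1 replicate 1 with MH63 replicate 3 (0.25). The deviations cancel within each group, so these values depend on each other and cannot settle whether the numbers are pairs. The main fit did not take them as pairs. Of the pathway genes named, 7 changed sign when single arrays were left out, with ranges of -0.10 to 0.15 for ILL6, -0.14 to 0.19 for GH3.6, -0.032 to 0.35 for OPR10, -0.33 to 0.055 for AOS4, -0.33 to 0.75 for AOS3, -0.27 to 0.36 for OPR4 and -0.15 to 0.011 for MFP. The nearest patterns were compared under alternatives chosen after seeing the data, and with the offset 2 of the 3 genes nearest to AOS2 remained. The differences of AOC, OPR7 and JAR1 did not pass over all probe sets in any alternative, and signals below the reporter-probe level, as for CYP76M5 on 4 arrays, limit what a pattern or fold can show.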
